A study of Mus musculus with 23 samples.

Results

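The anterior cingulate cortex (ACC) of the adult mouse carried 99966 listed regions of 2 histone marks on its 19 autosomes, 46928 of H3K27ac and 53038 of H3K4me2, out of 334051 regions listed for 4 cortical subregions. Each region was classed as carrying both marks when it shared at least 1 bp with a region of the other mark's full ACC list, and otherwise as H3K27ac only or H3K4me2 only. The classes were kept apart for enhancer regions, which the authors placed in an enhancer list, and excluded regions, which stand in the full list and not in the enhancer list. The sources used here do not state how the authors set enhancers apart, so excluded regions are not called promoters. The members were chosen by overlap of the listed positions in ACC. Class sizes, widths, offsets and distances come from the lists that made the classes, and are descriptions with no test.

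The study mapped both marks by chromatin immunoprecipitation and sequencing, to find enhancers that differ between neighbouring parts of the cortex and could drive expression in chosen neurons. For ACC, tissue was dissected from both hemispheres in 500 µm sections of C57BL6J mouse brain at postnatal day 56, and the labels name no transgene or treatment. They do not say whether libraries came from separate animals, nor their sex. There were 2 libraries for each mark and 2 input libraries. The retrosplenial cortex (RSC) and the lateral (LEC) and medial (MEC) entorhinal cortex were taken from mice of the same strain and age, with 1 H3K4me2 library in MEC. Each mark and subregion has 1 combined pair of lists, so no value here has a spread between animals, and the sequencing depth is unknown.

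H3K27ac is acetylation of lysine 27 of histone H3, placed by the coactivators p300 and CBP on nucleosomes beside active enhancers and promoters. H3K4me2 is dimethylation of lysine 4, placed by the KMT2 (MLL) family of methyltransferases, and it is found at active and inactive enhancers and promoters alike. In general, an enhancer with lysine 4 methylation and no H3K27ac is often called primed, and one with both is often called active. The lists come from whole tissue, in which neurons and glia are mixed, so 2 marks at 1 place need not be in the same cells.

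Most ACC regions of either mark carried the other mark as well. Of 27194 H3K27ac enhancer regions, 17283 carried both marks, which is 63.6% (Wilson 95% interval 63.0 to 64.1). Of 33418 H3K4me2 enhancer regions, 20069 carried both, which is 60.1% (59.5 to 60.6). H3K27ac only enhancers therefore numbered 9911 and H3K4me2 only enhancers 13349.

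Over all widths, excluded regions carried both marks more often than enhancers. The share was 77.0% (76.4 to 77.6), or 15198 of 19734, for H3K27ac and 75.6% (75.03 to 76.2), or 14840 of 19620, for H3K4me2. Over all ACC regions together it was 69.2% for H3K27ac and 65.8% for H3K4me2. In an alternative setting both full lists were cut to their widest 50%, so narrower regions of the other mark no longer counted as partners. The order then turned round for H3K4me2, with 64.7% (63.9 to 65.6) of enhancers and 61.4% (60.6 to 62.2) of excluded regions. Shares by width with all partners kept are given below. These intervals cover counting error only, as do all intervals after percentages below.

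The shares differed little from chromosome to chromosome. Across the 19 autosomes the H3K27ac enhancer share ran from 60.1% to 68.9% with a median of 63.6%. The H3K4me2 enhancer share ran from 55.8% to 64.7% with a median of 60.6%. For excluded regions the range was 73.5% to 80.4% for H3K27ac and 73.1% to 79.1% for H3K4me2, so the lowest autosome for excluded regions lay above the highest for enhancers.

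**Figure D1:**
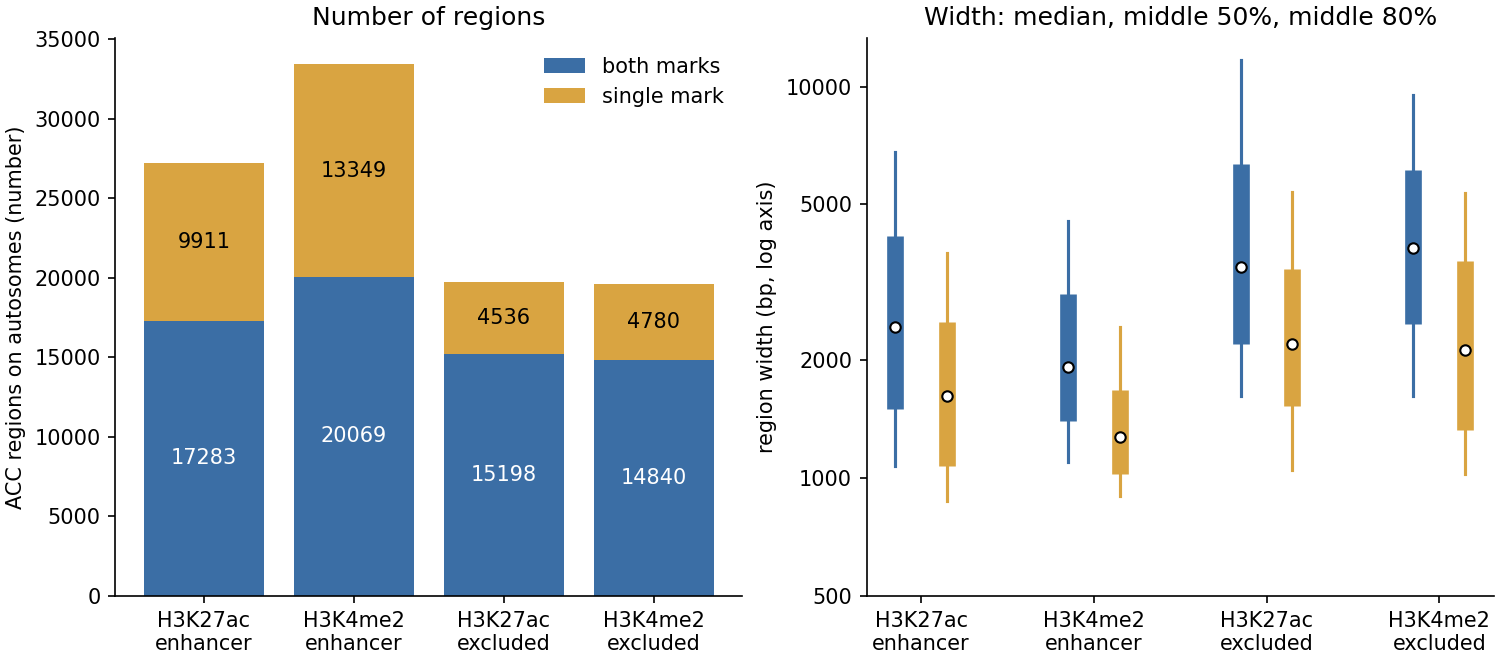
Left, the number of ACC regions on autosomes by mark and set, split into regions with both marks (blue) and with a single mark (yellow). Right, region width in bp on a log axis for the same classes, with the median as a circle, the middle 50% as a thick bar and the middle 80% as a thin line. Regions with both marks are wider in all 4 groups, with medians of 2425 against 1625 bp in H3K27ac enhancers.

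The shared bases were counted between lists of the same set. The enhancer lists covered 79.8 Mb with H3K27ac and 70.6 Mb with H3K4me2, and 38.9 Mb lay in both. That was 48.7% of the H3K27ac bases, 55.0% of the H3K4me2 bases and 34.8% of the bases in either. Counted by regions against the same lists, 61.2% of H3K27ac and 53.1% of H3K4me2 enhancers overlapped. In the excluded regions 58.2 Mb lay in both, or 59.3% of the 98.3 Mb of H3K27ac and 66.1% of the 88.1 Mb of H3K4me2.

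Regions with both marks were wider than regions with a single mark. H3K27ac enhancers had a median width of 2425 bp with both marks (middle 50%, 1500 to 4162.5 bp) and 1625 bp with H3K27ac only (1075 to 2500 bp), a ratio of 1.49. H3K4me2 enhancers had medians of 1925 bp (1400 to 2950 bp) and 1275 bp (1025 to 1675 bp), a ratio of 1.51. The order held on 19 of 19 autosomes for both marks. The distributions overlapped widely, so width does not separate the classes.

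Among excluded regions the gap was wider for H3K4me2. Their medians were 3875 bp with both marks and 2125 bp with H3K4me2 only, a ratio of 1.82, against 3450 and 2200 bp for H3K27ac, a ratio of 1.57. Narrow regions were common among single-mark enhancers: 18.6% of H3K27ac only and 20.2% of H3K4me2 only enhancers were under 1000 bp, against 6.42% and 5.66% of those with both marks. The enhancers with both marks held 74.5% of all H3K27ac enhancer bases and 71.4% of all H3K4me2 enhancer bases.

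The share with both marks climbed with width in every group. H3K27ac enhancers under 1000 bp carried both marks in 37.5% (35.8 to 39.3) of cases, and those of at least 4000 bp in 84.4% (83.4 to 85.3). H3K4me2 enhancers went from 29.6% (28.2 to 31.1) to 90.7% (89.6 to 91.7) over the same widths. A wider region has more positions at which 1 bp can be shared, and how much of this trend that accounts for was not tested.

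At equal width the lead of excluded regions over enhancers was smaller, and for H3K4me2 it was small or absent from 1000 bp up. H3K4me2 regions of 1000 to under 2000 bp carried both marks in 52.5% (51.8 to 53.3) of enhancers and 54.5% (52.9 to 55.99) of excluded regions. From 2000 to under 4000 bp the shares were 78.1% and 77.2%, and from 4000 bp enhancers were above, at 90.7% against 88.1%. Under 1000 bp excluded H3K4me2 regions were above, at 35.0% (31.3 to 38.9) against 29.6% (28.2 to 31.1). For H3K27ac excluded regions stayed above enhancers from 1000 bp up, with 63.8% (62.4 to 65.3) against 56.7% (55.7 to 57.7) at 1000 to under 2000 bp and 76.1% against 67.2% at 2000 to under 4000 bp. Under 1000 bp the H3K27ac intervals overlapped, with 35.2% (31.3 to 39.4) of excluded regions and 37.5% of enhancers.

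**Figure D2:**
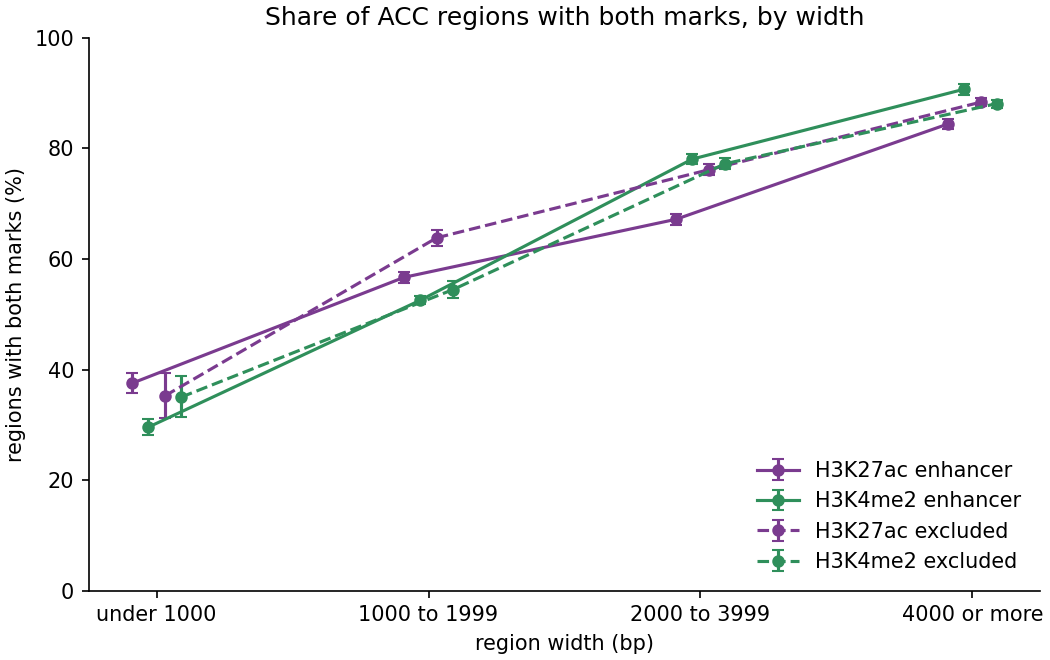
The share of ACC regions with both marks (vertical axis, %) in 4 classes of region width in bp, for each mark and set. Bars are Wilson 95% intervals. All 4 lines climb, from between 29.6% and 37.5% under 1000 bp to between 84.4% and 90.7% at 4000 bp or more.

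Partner regions were mostly of the same kind. Enhancers made up 63.0% of the ACC H3K4me2 full list and 57.9% of the H3K27ac full list. The rule that set enhancers apart is unknown, so how far it fixed this pairing was not tested. Of the H3K27ac enhancers with both marks, 96.0% overlapped H3K4me2 enhancers alone, 3.74% overlapped excluded H3K4me2 regions alone and 36 regions overlapped both kinds. Of the H3K4me2 enhancers with both marks, 88.4% overlapped H3K27ac enhancers alone and 11.6% (11.2 to 12.1), or 2328 regions, overlapped excluded H3K27ac regions alone. At these 2328 places the H3K4me2 region was in its enhancer list and the H3K27ac regions over it were not in theirs. Of the excluded regions with both marks, 88.0% of H3K27ac and 95.7% of H3K4me2 overlapped excluded regions of the other mark alone.

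More than 50% of the H3K4me2 enhancers with both marks were covered fully by H3K27ac. The median H3K4me2 enhancer with both marks was covered by H3K27ac over 100% of its length, and 55.0% were covered fully. The median H3K27ac enhancer with both marks was covered by H3K4me2 over 84.0% of its length (middle 50%, 60.9% to 99.1%), and 24.5% were covered fully. In excluded regions this turned round: 45.4% of H3K27ac regions with both marks were covered fully by H3K4me2, and 28.5% of H3K4me2 regions were covered fully by H3K27ac.

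An overlap was mostly 1 region against 1 region. A single H3K4me2 region overlapped 93.8% of the H3K27ac enhancers with both marks, and 1075 had 2 or more, with a median width of 8975 bp. Only 158 H3K4me2 enhancers overlapped 2 or more H3K27ac regions. The largest number of H3K4me2 regions over 1 H3K27ac enhancer was 8, and over 1 excluded H3K27ac region it was 10, in a region of 148325 bp. Among excluded regions, 1387 of H3K27ac (9.13%) and 657 of H3K4me2 (4.43%, median width 9725 bp) overlapped 2 or more regions of the other mark. An H3K27ac region over several H3K4me2 regions was thus the commoner arrangement in both sets, by a wider margin in enhancers.

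Few regions stood near the 1 bp limit. Just inside it, 14 H3K27ac and 17 H3K4me2 enhancers shared no more than 100 bp with the other mark. Just outside it, 6 H3K27ac only and 9 H3K4me2 only enhancers lay within 100 bp of a region of the other mark, and the nearest of both kinds were 25 bp away. Within 1000 bp there were 139 H3K27ac only enhancers (1.40%) and 176 H3K4me2 only enhancers (1.32%). The median H3K27ac only enhancer was 8525 bp from the nearest H3K4me2 region, and the median H3K4me2 only enhancer was 13625 bp from the nearest H3K27ac region. More than 100 kb from the other mark lay 456 H3K27ac only enhancers (4.60%) and 1175 H3K4me2 only enhancers (8.80%).

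To compare positions, regions of the marks were paired when each was the other's largest overlap. This gave 16482 pairs of enhancer regions, 13636 pairs of excluded regions, 298 pairs of an H3K27ac enhancer with an excluded H3K4me2 region and 1238 pairs of an excluded H3K27ac region with an H3K4me2 enhancer.

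Enhancer pairs were nearly centred on each other. Their midpoints were a median of 225 bp apart (order-statistic 95% interval 212.5 to 225 bp), with a middle 50% of 87.5 to 587.5 bp. In 30.5% of them the midpoints lay within 100 bp, and in 14.7% they lay over 1000 bp apart. Excluded pairs had a median offset of 412.5 bp (400 to 425 bp), with 25.8% over 1000 bp. As a share of the wider region the medians were close, at 8.87% for enhancer pairs and 9.80% for excluded pairs, so the larger offset in bp came with wider regions. Mixed pairs were the least centred, with medians of 1294 bp for H3K27ac enhancers on excluded H3K4me2 regions and 1050 bp for the reverse.

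The wider mark differed between enhancers and excluded regions. In enhancer pairs H3K27ac was the wider region in 64.6% (63.9 to 65.4), with median widths of 2450 bp for H3K27ac and 1925 bp for H3K4me2. In excluded pairs it was the wider one in 37.7% (36.9 to 38.5), with medians of 3287.5 and 3950 bp. The H3K4me2 region lay wholly inside the H3K27ac region in 48.5% of enhancer pairs and 25.6% of excluded pairs. The H3K27ac region lay wholly inside the H3K4me2 region in 22.3% of enhancer pairs and 49.1% of excluded pairs. Only 28 enhancer pairs and 6 excluded pairs had identical ends.

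The contrast was present at each span examined and was smallest in the shortest pairs. With a joint span of 1000 to under 2000 bp, H3K27ac was wider in 43.1% (41.7 to 44.5) of enhancer pairs and 36.3% (33.4 to 39.2) of excluded pairs. At 2000 to under 4000 bp it was 66.9% (65.7 to 68.0) against 28.3% (26.98 to 29.6), and at 4000 bp or more 82.8% (81.7 to 83.8) against 43.1% (42.0 to 44.2). In the shortest of these spans H3K4me2 was thus more often the wider mark in both kinds of pair. Widths of paired regions went together across pairs, with Spearman's rho of 0.59 over 16482 enhancer pairs and 0.65 over 13636 excluded pairs, given without a p because pairs share the same 2 lists.

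**Figure D3:**
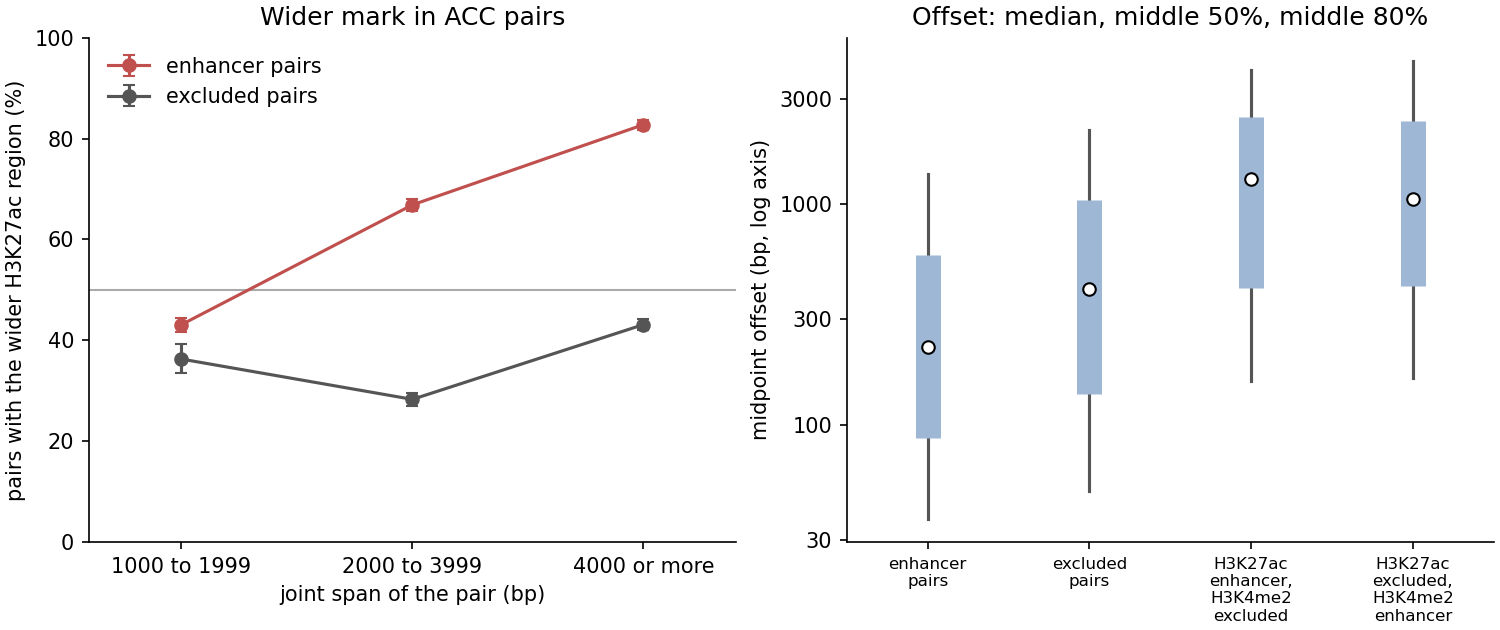
Left, the share of ACC pairs in which H3K27ac is the wider region (vertical axis, %), by the joint span of the pair in bp, for enhancer and excluded pairs, with Wilson 95% intervals and a line at 50%. Right, the distance between midpoints in bp on a log axis for the 4 kinds of pair, with the median as a circle, the middle 50% as a thick bar and the middle 80% as a thin line. H3K27ac is wider in 82.8% of enhancer pairs and 43.1% of excluded pairs at spans of 4000 bp or more.

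The offset of enhancer pairs had no preferred direction toward excluded regions. Among 16135 ACC enhancer pairs with an offset and no excluded region touching them, the H3K27ac midpoint was the one nearer to the closest excluded region in 49.4% (48.6 to 50.2). The share was 50.3% (48.4 to 52.2) for pairs within 5 kb, 49.1% (47.6 to 50.5) from 5 to 20 kb and 49.3% (48.2 to 50.3) beyond 20 kb.

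Distance to the nearest excluded region of either mark was shorter for enhancers with both marks. The median was 23150 bp (22575 to 23850 bp) for H3K27ac enhancers with both marks and 28600 bp (27400 to 29900 bp) for H3K27ac only, a ratio of 0.81. For H3K4me2 it was 20100 bp (19550 to 20625 bp) and 33325 bp (32350 to 34350 bp), a ratio of 0.60.

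Part of this difference is built into the classes. Only an enhancer with both marks can touch an excluded region of the other mark, and 683 H3K27ac and 2338 H3K4me2 enhancers with both marks did, at distance 0. Without these, a comparison added after the data were seen, the ratio was 0.87 for H3K27ac and 0.76 for H3K4me2. With partners of the same set only, enhancers whose partners were all excluded count as single-mark, 647 for H3K27ac and 2328 for H3K4me2. The ratio was then 0.999 (0.932 to 1.07) for H3K27ac and 1.05 (0.992 to 1.13) for H3K4me2. Neither interval excluded equal distances. This setting puts distances of 0 in the single-mark class, which lowers its median by construction, so equal distances are not shown.

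Far from excluded regions both marks coincided less often. Beyond 100 kb, 55.3% (53.9 to 56.7) of 4838 H3K27ac enhancers and 47.6% (46.3 to 48.9) of 5887 H3K4me2 enhancers carried both marks. Within 5 kb, without touching, it was 63.0% (61.5 to 64.4) and 62.4% (60.9 to 63.9). For H3K27ac there was no fall before 100 kb, with 64.8% from 5 to 20 kb and 64.4% from 20 to 100 kb. For H3K4me2 the share went down over these distances, to 60.4% and 57.5%. Remote enhancers were also narrower, with median widths of 1887.5 against 2325 bp for H3K27ac and 1400 against 1775 bp for H3K4me2, and the part of width in the lower share was not tested.

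Single-mark H3K4me2 enhancers stood more alone along the chromosome. The median gap from an H3K4me2 only enhancer to the next H3K4me2 enhancer was 15000 bp, against 8200 bp for those with both marks. No other H3K4me2 enhancer had its midpoint within 50 kb for 19.02% of the former and 9.82% of the latter. H3K27ac enhancers showed little of this, with median gaps of 10300 bp for H3K27ac only and 9650 bp for both marks. The nearest H3K4me2 enhancer carried both marks for 70.6% (69.9 to 71.2) of H3K4me2 enhancers with both and 47.9% (47.1 to 48.8) of H3K4me2 only, where 60.1% of all H3K4me2 enhancers carried both. For H3K27ac these shares were 66.6% (65.9 to 67.3) and 57.9% (56.95 to 58.9), where 63.6% of all carried both. Most H3K27ac only enhancers thus had a neighbour with both marks, though fewer than the enhancers with both marks did.

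The lists of RSC, LEC and MEC had no part in the classes, so they give a reading of the same places in other libraries. ACC enhancers with a single mark were listed elsewhere less often than those with both marks, which were close to the share of all ACC regions. A full H3K27ac list of RSC, LEC or MEC overlapped 83.9% (83.3 to 84.4) of ACC H3K27ac enhancers with both marks and 70.7% (69.8 to 71.6) of H3K27ac only, against 83.6% of all ACC H3K27ac regions. For H3K4me2 the shares were 85.2% (84.7 to 85.7) and 72.5% (71.8 to 73.3), against 84.7% of all ACC H3K4me2 regions. All ACC regions include the excluded ones, so these are not enhancer baselines. Excluded regions had 93.8% with both marks and 76.3% with H3K27ac only, and for H3K4me2 94.3% and 86.3%. The difference between the enhancer classes was 13.2 percentage points for H3K27ac and 12.7 for H3K4me2. There is 1 list per subregion and mark, so it was not tested across animals.

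At equal width the difference was smaller. In H3K27ac enhancers under 1000 bp it was not detectable within the intervals, with 43.4% (40.5 to 46.3) for both marks and 42.4% (40.2 to 44.7) for H3K27ac only. At 1000 to under 2000 bp it was 74.3% (73.1 to 75.4) against 68.3% (66.9 to 69.7), and at 4000 bp or more 97.4% (96.9 to 97.8) against 93.4% (91.6 to 94.9). For H3K4me2 enhancers the difference was largest at 2000 to under 4000 bp, with 92.4% (91.8 to 93.04) against 84.8% (83.2 to 86.4). They gave 98.1% against 93.8% at 4000 bp or more, 81.4% (80.6 to 82.2) against 77.8% (76.9 to 78.7) at 1000 to under 2000 bp and 42.1% (39.3 to 45.01) against 44.8% (42.96 to 46.7), with overlapping intervals, under 1000 bp.

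Taken over all widths, most single-mark ACC enhancers lacked the missing mark in the other subregions as well. An H3K4me2 list of RSC, LEC or MEC overlapped 33.9% (33.0 to 34.8) of ACC H3K27ac only enhancers and 87.1% (86.6 to 87.6) of ACC H3K27ac enhancers with both marks, where the share over all ACC H3K27ac regions was 74.6%. An H3K27ac list elsewhere overlapped 26.5% (25.8 to 27.3) of ACC H3K4me2 only enhancers and 85.6% (85.1 to 86.1) of those with both marks, where the share over all ACC H3K4me2 regions was 69.8%. The order stayed the same in each width class: at 1000 to under 2000 bp, H3K4me2 elsewhere was at 32.7% of H3K27ac only and 83.6% of both-mark enhancers, and H3K27ac elsewhere at 25.3% of H3K4me2 only and 80.7% of both-mark enhancers. In single-mark enhancers of 4000 bp or more the missing mark was listed elsewhere more often. It was at 51.7% (48.3 to 55.05) of H3K27ac only, an interval that includes 50%, where both-mark enhancers had 94.1%. It was at 57.5% (51.5 to 63.2) of H3K4me2 only, where both-mark enhancers had 96.3%. In excluded regions of all widths it was at 48.2% of H3K27ac only and 49.8% of H3K4me2 only.

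The difference between classes was present in RSC, LEC and MEC taken singly. In RSC, H3K27ac only enhancers of ACC carried H3K27ac alone in 36.2%, both marks in 17.1%, H3K4me2 alone in 6.40% and neither in 40.3%. H3K4me2 only enhancers of ACC carried H3K4me2 alone in 38.3%, both marks in 10.99%, H3K27ac alone in 3.69% and neither in 47.0%. ACC H3K27ac enhancers with both marks carried both in RSC in 49.9% and in LEC in 53.5%, and neither in 16.5% of cases in each. In MEC 13.6% carried both and 56.7% neither. The MEC lists were shorter, with 10709 H3K27ac and 14298 H3K4me2 enhancers, and the part of list length in these shares was not tested.

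Restricted to places where the other subregion listed the same mark, the other mark still followed the class in ACC. Where RSC listed H3K27ac, H3K4me2 was also listed there for 78.0% (77.2 to 78.8) of 11048 ACC enhancers with both marks and 32.1% (30.9 to 33.4) of 5283 H3K27ac only. In LEC it was 79.7% against 35.4%, and in MEC 49.3% against 17.8%. Where RSC listed H3K4me2, H3K27ac was also listed there for 74.7% (73.9 to 75.4) of 13335 ACC H3K4me2 enhancers with both marks and 22.3% (21.3 to 23.3) of 6586 H3K4me2 only. In LEC it was 78.6% against 26.3%, and in MEC 47.9% against 14.9%. The order was the same in 3 of 3 other subregions for both marks. These shares were not split by width, nor set against a share over all ACC regions. ACC enhancers with both marks were wider, and the part of width here was not tested.

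**Figure D4:**
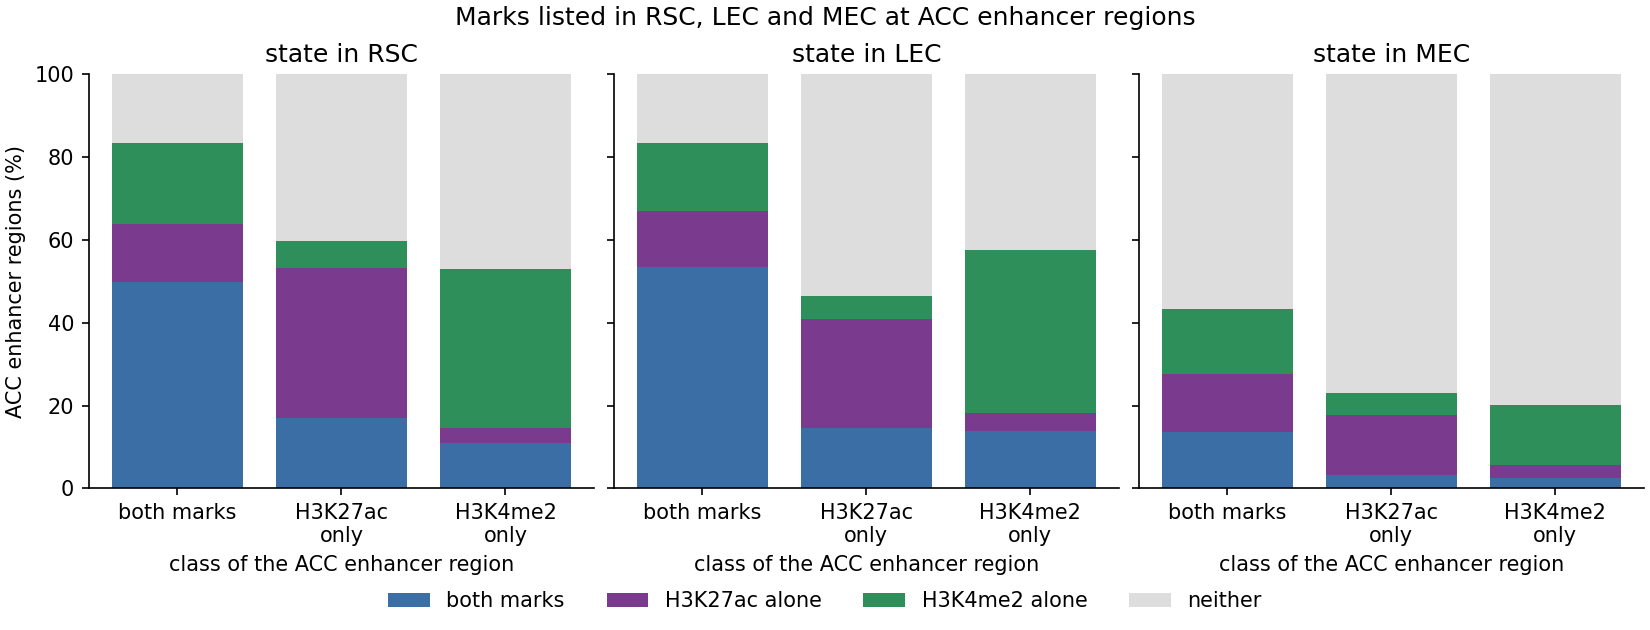
The marks listed in RSC, LEC and MEC (panels) at ACC enhancer regions of 3 classes, as shares of the ACC regions (vertical axis, %): both marks, H3K27ac alone, H3K4me2 alone or neither. ACC regions with both marks are shown by their H3K27ac region. In RSC both marks are listed at 49.9% of ACC regions with both marks, 17.1% of H3K27ac only and 10.99% of H3K4me2 only.

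At some places the ACC lists lacked a mark that all 3 other subregions listed. This was so for H3K4me2 at 421 ACC H3K27ac only enhancers, or 4.25% (3.87 to 4.66), and for H3K27ac at 381 H3K4me2 only enhancers, or 2.85% (2.58 to 3.15). Of the enhancers with both marks, 21.8% (H3K27ac) and 22.6% (H3K4me2) had the other mark in all 3. Among excluded regions the missing mark was listed in all 3 at 991 of 4536 H3K27ac only regions, or 21.8% (20.7 to 23.1), and 1005 of 4780 H3K4me2 only regions, or 21.03% (19.9 to 22.2). Excluded regions with both marks also had higher values than enhancers, at 54.7% and 44.5%. This count was chosen after the data were seen.

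The share was highest in wide excluded H3K4me2 only regions. Of 964 such ACC regions of at least 4000 bp, 565 or 58.6% (55.5 to 61.7) had H3K27ac listed in RSC, LEC and MEC alike. Excluded H3K4me2 regions of that width with both marks in ACC reached 64.1% (62.9 to 65.2), which was higher with intervals that did not overlap. In at least 1 other subregion, H3K27ac was listed at 92.1% (90.2 to 93.7) of the 964 regions. Excluded H3K4me2 regions of that width with both marks were again higher, at 98.8% (98.5 to 99.0). Of the 565 regions, 4 lay within 1000 bp of an ACC H3K27ac region, and the median distance was 11.3 kb, while of all 4780 excluded H3K4me2 only regions 41 (0.858%) lay that near. At 1000 to under 2000 bp, H3K27ac was listed in all 3 at 1.72% (1.22 to 2.41) of H3K4me2 only regions and 11.7% (10.4 to 13.1) of those with both marks. The share thus climbed with width in both classes. Whether these regions lack H3K27ac in ACC tissue or are missing from its list cannot be told apart here.

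**Figure D5:**
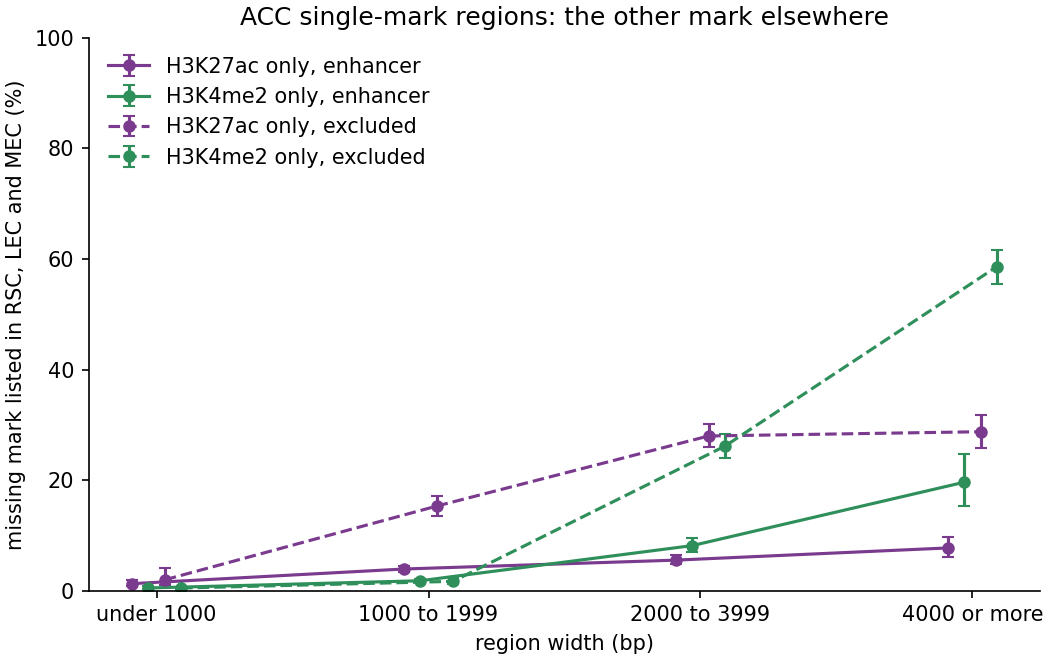
The share of ACC single-mark regions whose missing mark was listed in RSC, LEC and MEC alike (vertical axis, %), by region width in bp, with Wilson 95% intervals. Excluded H3K4me2 only regions reach 58.6% at 4000 bp or more, and enhancer regions stay at or below 19.6%.

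Outside chromosome 18, from which no region is named, the widest enhancer pairs were H3K27ac domains holding several H3K4me2 regions. The widest was chr14:64985301-65040550 (mm9), 1 H3K27ac region of 55250 bp over 8 H3K4me2 regions that covered 47.2% of it, and 10.8 kb from the nearest excluded region. RSC and MEC listed H3K27ac over all 55.3 kb, and LEC over 51.0 kb. H3K4me2 covered 17.98 kb of it in RSC, 12.4 kb in LEC and 5.63 kb in MEC. The next, chr4:119618876-119665175, was an H3K27ac region of 46300 bp over 6 H3K4me2 regions that covered 67.1% of it. H3K27ac covered 39.6 kb of this span in RSC, 39.3 kb in LEC and 22.6 kb in MEC. The third, chr8:122799176-122844375, was 45200 bp wide with 3 H3K4me2 regions, of which RSC listed H3K27ac over 31.7 kb and H3K4me2 over 9.65 kb. LEC listed them over 31.5 and 22.9 kb, and MEC listed H3K27ac over 4.60 kb and no H3K4me2.

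The widest H3K27ac only enhancers were narrower than these, and all were listed for H3K27ac in RSC and LEC. Of these, chr17:70804151-70825675 was 21525 bp wide and 6.93 kb from the nearest ACC H3K4me2 region, and RSC had 3 H3K4me2 regions there covering 3.70 kb. At chr9:119941151-119956700, 15550 bp wide, no subregion listed H3K4me2. The region chr2:7152426-7167150, 14725 bp wide, was covered over its whole width by H3K27ac in LEC and MEC, and RSC alone listed H3K4me2 there, over 1.63 kb.

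The widest H3K4me2 only enhancer lay where the other subregions had H3K27ac. It was chr2:166953001-166975800, 22800 bp wide, and RSC and LEC listed H3K27ac over all 22.8 kb and MEC over 17.5 kb. The nearest ACC H3K27ac region was 22.1 kb away. At chr7:75109176-75124500, 15325 bp wide, H3K27ac covered 1.80 kb in RSC, 1.90 kb in LEC and 1.30 kb in MEC. The third, chr5:132988451-133000875, 12425 bp wide, had no H3K27ac in any subregion, and H3K4me2 elsewhere covered 1.35 kb in LEC alone.

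Of the pairs outside chromosome 18, the following 2 lay farthest from an excluded region. The pair at chr11:38674776-38676075 had an H3K27ac region of 1300 bp and an H3K4me2 region of 1100 bp, with midpoints 50 bp apart, 1623 kb from any excluded ACC region. Elsewhere it was listed for H3K4me2 in RSC and for H3K27ac in MEC. The pair at chr10:129976301-129980900, 1588 kb from an excluded region, had an H3K27ac region of 2250 bp wholly inside an H3K4me2 region of 4600 bp, and both marks were listed there in all 3 other subregions. Gene names are not given for these regions, because the gene table at hand is of another genome build.

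RSC and LEC had the same order of widths and of the wider mark as ACC, and no feature above was tested as particular to ACC. Their H3K27ac enhancers carried both marks in 56.02% (55.4 to 56.7) in RSC and 63.0% (62.4 to 63.7) in LEC. For H3K4me2 enhancers it was 54.8% (54.2 to 55.3) and 56.5% (55.9 to 57.1), both below the ACC value of 60.1%. The H3K27ac lists were longest in ACC, with 27194 enhancer and 19734 excluded regions. RSC had 23665 and 16734, and LEC 22461 and 18558. The H3K4me2 lists were also longest in ACC, with 33418 and 19620, against 28050 and 17285 in RSC and 28522 and 18441 in LEC. The part of list length in these shares was not tested. The H3K27ac region was the wider one in 67.6% of RSC and 68.2% of LEC enhancer pairs, and in 29.6% and 29.5% of their excluded pairs, where ACC had 64.6% and 37.7%. Median offsets of enhancer pairs were 237.5 bp in RSC and 225 bp in LEC.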

How the data were processed

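Per the labels, the ACC tissue gave 2 H3K27ac, 2 H3K4me2 and 2 input libraries. Per the submitters' processing notes, Bowtie 1.1.1, bedtools 2.19.0 and the genome build mm9 were used. How peaks were called, at which threshold, and how replicates were combined are unstated in the sources used here. In the deposited lists the values are positions (on a 25 bp grid in ACC), and no enrichment is recorded. The score field repeats the region's width (0 exceptions) in all lists that have one. The 2 MEC H3K27ac lists hold positions only. Of 17 deposited lists 16 were used, the other being a duplicate.

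Overlaps, pairs and edge distances were computed in Python 3.11.15 (scipy 1.17.1, numpy 2.4.6). They were tested on simulated lists, and the ACC enhancer overlap counts were also checked with bedtools 2.31.1. Percentages have Wilson 95% intervals and medians order-statistic intervals, for counting error only. Intervals of ratios divide opposite ends of the median intervals of both classes and are not 95% intervals. Neither depth nor replicate spread is known, so there are no p-values. Coordinates are 1-based, in mm9, and no genome sequence was used here. The members and groupings were chosen with earlier results of these data known. Named regions, outside chromosome 18, are the 3 widest enhancer pairs, the 3 widest enhancers of each single-mark class and the 2 enhancer pairs farthest from an excluded region. The count of regions whose missing mark was listed in all other subregions, and the distances without touching regions, were chosen after the data were seen. The alternatives changed the overlap, partner list, widths, chromosomes, pairing and lists compared.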

Additional observations from a re-analysis of the deposited data

Results flagged for a closer look

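In MEC the width order of excluded H3K27ac regions was opposite to that in ACC. Excluded H3K27ac regions with both marks had a median width of 2225 bp in MEC, against 2550 bp for H3K27ac only, a ratio of 0.873, where ACC had a ratio of 1.57. Each subregion has 1 list, so the difference was not tested. The MEC H3K4me2 list comes from 1 library per the labels.

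Chromosome X was outside the comparison of autosomes, and it carried regions of all classes in ACC. Both marks were present at 57.3% (53.6 to 60.9) of its 712 H3K27ac enhancers and 56.8% (53.2 to 60.3) of its 757 H3K4me2 enhancers, with 63.6% and 60.1% on the autosomes. For excluded regions on chromosome X the shares were 76.8% (73.3 to 79.9) and 77.1% (73.6 to 80.2), with autosome values of 77.0% and 75.6%.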

How the results depend on the processing

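Of 80 alternative values for 12 results, 45 stayed within the interval of the value reported, 34 moved beyond it and 1 reversed. With partners of the same set only, the ratio of distances turned round to 1.05 for H3K4me2 (interval 0.992 to 1.13) and was 0.999 for H3K27ac, because regions touching an excluded region then count as single-mark. That setting also gave shares with both marks of 61.2% and 53.1% for H3K27ac and H3K4me2 enhancers and 71.9% and 74.5% for excluded regions, and a width ratio of 1.43 for H3K4me2. The setting with the widest 50% of each list also removed narrower partner regions of the other mark. Its shares were 55.5%, 64.7%, 74.8% and 61.4% in the same order, so excluded H3K4me2 regions lay below enhancers. They are not the shares of wide regions with all partners kept. Its width ratios were 1.31 and 1.31, and its offsets 387.5 and 575 bp. The H3K27ac distance ratio was 0.652 and the H3K27ac lead elsewhere 11.1 points. For regions of 1000 to 3000 bp the shares were 59.6%, 58.7%, 69.6% and 64.2%, the width ratios 1.09 and 1.26, both offsets 125 bp, the distance ratios 0.875 and 0.661 and the leads elsewhere 6.61 and 6.19 points. Counting the other mark within 1000 bp gave 60.6% for H3K4me2 enhancers. Pairs with no other overlap had offsets of 200 bp (enhancer) and 337.5 bp (excluded). The distance ratio was 0.716 for H3K4me2 with excluded regions of the same mark, and without touching regions 0.874 for H3K27ac and 0.761 for H3K4me2. Requiring an overlap of 50% of the narrower region and taking all chromosomes moved no result beyond its interval. No paired analysis was possible because the deposited lists combine the libraries of each mark, and for the same reason no replicate could be left out. Depth is unknown, so a region missing from a list may lie below its detection limit.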

Other observations

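Wide excluded H3K4me2 only regions whose missing H3K27ac was listed in all 3 other subregions were also present in RSC and LEC, with the lists compared in the same way and after the data were seen. In RSC they were 439 of 782 regions of at least 4000 bp, or 56.1% (52.6 to 59.6), beside 69.5% (68.4 to 70.7) for such regions with both marks. In LEC they were 362 of 726, or 49.9% (46.2 to 53.5), beside 62.5% (61.4 to 63.6). At 1000 to under 2000 bp the shares were 1.41% in RSC and 1.42% in LEC, beside 18.9% and 15.4% for regions with both marks. The 3 subregions were not compared by a test.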
